A study of Mus musculus with 22 samples.

Results

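Tbr1, Neurod2, Neurod6, Bcl11b, Fezf2, Cux1, Cux2 and Emx1 encode transcription factors that pattern the excitatory (glutamatergic) neurons of the cerebral cortex, and the DNA modification over these 8 genes was followed across mouse cortex, olfactory bulb and cerebellum. The genes were taken as a named list, chosen with earlier results of these data known, and placed by their GENCODE M21 spans on mm10. They are 8 of 21718 protein-coding genes with a methylation level, and they overlap 15 of 25664 bins of 100 kb and 10 of 2581 bins of 1 Mb. Whole tissue was dissected from C57BL/6 mice at an age of 8 weeks, with no treatment and no genetic alteration in any group. All animals were female. The cortex samples held the whole cerebral cortex without the hippocampus, and the other 2 tissues were taken whole. Oxidative bisulfite sequencing (oxBS-seq), which reads 5-methylcytosine (5mC) alone, was available for 3 cortex, 2 olfactory bulb and 2 cerebellum libraries. Tet-assisted bisulfite sequencing (TAB-seq), which reads 5-hydroxymethylcytosine (5hmC) alone, was available for 3 libraries per tissue. The replicates came from independent mice, and each library is a mixture of all cell types of its tissue, so the share of a cell type and the modification within that cell type cannot be told apart.

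In mammals 5mC is written at CpG dinucleotides by DNA methyltransferases, and TET enzymes oxidise it to 5hmC, a modification that is abundant in neurons. Regulatory regions of a gene that is active in a cell type are often low in 5mC there, and in neurons broad stretches over such genes can be low too. Tbr1 (deep-layer corticothalamic identity), Fezf2 and Bcl11b (subcerebral projection neurons; Bcl11b is also named Ctip2), Cux1 and Cux2 (upper layers), Neurod2 and Neurod6 (postmitotic excitatory neurons) and Emx1 (dorsal telencephalic progenitors and their neurons) are standard marks of cortical excitatory lineages. Bcl11b is also known from striatal and olfactory bulb neurons, and Cux1 is expressed in many tissues.

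The size of the genes sets what a bin level can say about them. Cux1 covers 319.4 kb (chromosome 5, 136248135 to 136567490, minus strand) and 79.8% of its 4 bins, Cux2 covers 193.7 kb (chromosome 5, 121856366 to 122050102, minus strand) and 64.6% of its 3 bins, and Bcl11b covers 93.2 kb (chromosome 12, 107910403 to 108003602, minus strand) and 46.6% of its 2 bins. The other 5 genes are short. Emx1 (chromosome 6, 85187438 to 85204462, plus strand) fills 8.51% of 2 bins, Tbr1 (chromosome 2, 61802930 to 61814114, plus strand) 11.2% of 1, Fezf2 (chromosome 14, 12342094 to 12348189, minus strand) 6.10%, Neurod2 (chromosome 11, 98325415 to 98329648, minus strand) 4.23% and Neurod6 (chromosome 6, 55677822 to 55681263, minus strand) 3.44%. For these 5 the level is mostly that of neighbouring sequence. The Neurod2 bin also overlaps Ppp1r1b, Stard3, Tcap, Pnmt and Pgap3, the Fezf2 bin overlaps Cadps, 3830406C13Rik and Gm49355, and the Emx1 bins also overlap Spr and Sfxn5. The bins of Neurod6 and Bcl11b hold no other protein-coding gene.

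CpG sites, the substrate of both modifications, were unevenly spread over the 8 genes. The GRCm38 sequence held 1950 CpG sites per 100 kb in the Neurod2 bin, 1930 in the Cux2 bins and 1830 in the Bcl11b bins, which put them at the percentiles 99.6, 99.6 and 99.2 of all 100 kb bins, whose median was 751. The Neurod6 bin held 842 (percentile 58.1), and only 43 of these sites lay within the gene itself, 5.11% of the sites in its bin. Across all 25664 bins the 5mC level and the number of CpG sites had a Pearson correlation of -0.642 in cortex, -0.641 in the olfactory bulb and -0.622 in cerebellum, given as a description, since neighbouring bins share libraries and sequence context. The bases upstream of 3 start sites show the range. They are the 250 bases before the RefSeq transcription start (GRCm38.p6), written 5′ to 3′ on the strand of the gene, with every CpG in capitals. Neurod6 stands for the CpG-poor end, the upstream of 2 listed Cux2 promoters for the CpG-rich end, and Bcl11b is the gene with the widest differences between tissues below.
Neurod6, chr6:55681264-55681513, minus strand: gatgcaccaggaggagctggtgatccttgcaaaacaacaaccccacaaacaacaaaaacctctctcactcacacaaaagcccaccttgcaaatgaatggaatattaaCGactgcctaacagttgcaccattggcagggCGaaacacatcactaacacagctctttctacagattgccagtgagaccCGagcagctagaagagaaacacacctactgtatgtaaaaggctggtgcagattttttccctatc
Bcl11b, chr12:108003415-108003664, minus strand: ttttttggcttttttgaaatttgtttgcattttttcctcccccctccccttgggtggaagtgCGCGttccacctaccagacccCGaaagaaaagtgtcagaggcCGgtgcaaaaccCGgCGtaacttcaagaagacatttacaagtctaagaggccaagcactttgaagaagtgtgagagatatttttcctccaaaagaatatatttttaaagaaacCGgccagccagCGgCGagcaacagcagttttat
Cux2, chr5:122049852-122050101, minus strand: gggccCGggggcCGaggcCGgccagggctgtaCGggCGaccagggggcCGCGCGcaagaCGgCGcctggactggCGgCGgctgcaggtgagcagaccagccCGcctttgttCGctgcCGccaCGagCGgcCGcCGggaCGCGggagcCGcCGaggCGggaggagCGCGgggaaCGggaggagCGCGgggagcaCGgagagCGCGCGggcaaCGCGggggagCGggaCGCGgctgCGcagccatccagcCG
The Neurod6 window held 3 CpG sites, a number reached by 71.0% of 32851 RefSeq promoters, whose median was 6. The Bcl11b window held 9, a number reached by 40.3% of promoters, and the Cux2 window held 40, a number reached by 1.31%. The other Cux2 promoter of the RefSeq table (chr5:122047826-122048075), not printed, held 3, as few as Neurod6. The deposited levels do not resolve windows of this size, so no methylation level is given for them.

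In every tissue the 8 genes lay mostly below the typical gene in 5mC. The level of a gene is the mean fraction over the 100 kb bins it overlaps. In cortex all 8 were below the median of the protein-coding genes, and the median of the 8 was 0.543 against 0.631. In olfactory bulb 7 of 8 were below it (median of the 8 0.585 against 0.664), and in cerebellum 7 of 8 were (0.617 against 0.685), the exception in both tissues being Neurod6. Library medians over all genes ran from 0.614 to 0.644 in cortex, 0.660 to 0.669 in the olfactory bulb and 0.676 to 0.693 in cerebellum, with cortex replicate 3 the lowest. Read depth per library was not used, because the levels came as fractions without read counts. The spread between libraries is thus the only error available here.

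**Figure D1:**
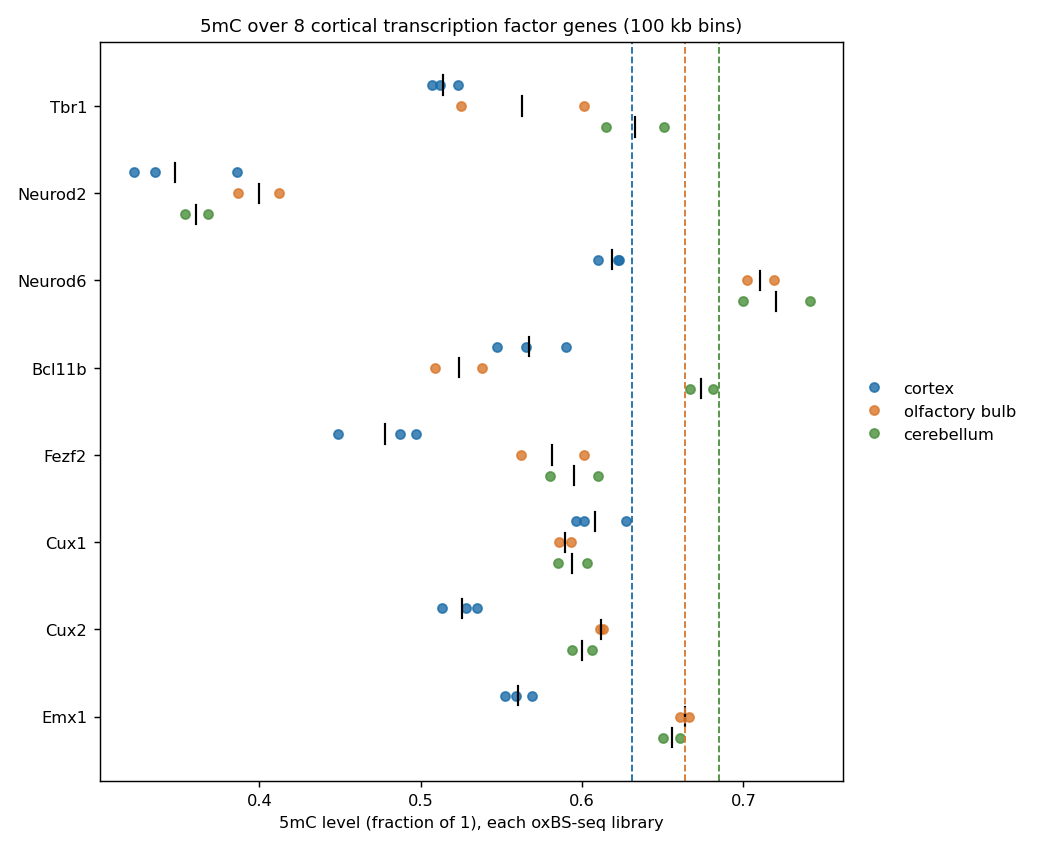
5mC level of each gene in each oxBS-seq library (points; horizontal axis, fraction of 1), with the tissue mean as a black tick and the median of all protein-coding genes of each tissue as a dashed line. Cortex (blue) lies to the left of both other tissues for Neurod6, Fezf2, Cux2 and Emx1, Bcl11b is low in olfactory bulb (orange), and the Cux1 libraries lie close together.

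Neurod6, Fezf2, Cux2 and Emx1 shared one pattern, with the lowest 5mC in cortex and similar levels in the other 2 tissues. Neurod6, a bHLH factor of postmitotic excitatory neurons, was at 0.623, 0.622 and 0.610 in the cortex libraries, 0.702 and 0.719 in olfactory bulb and 0.741 and 0.700 in cerebellum. Fezf2, a zinc-finger selector of subcerebral projection neurons, was at 0.487, 0.497 and 0.449 in cortex, 0.601 and 0.562 in olfactory bulb and 0.610 and 0.580 in cerebellum. For both genes every cortex library lay below every library of the other tissues, and olfactory bulb and cerebellum overlapped. Cux2, a homeodomain factor of upper-layer neurons, was at 0.535, 0.528 and 0.513 in cortex, 0.613 and 0.611 in olfactory bulb and 0.606 and 0.594 in cerebellum. Emx1, a homeobox gene of the dorsal telencephalon, was at 0.559, 0.569 and 0.552 in cortex, 0.666 and 0.661 in olfactory bulb and 0.661 and 0.650 in cerebellum. Again the cortex libraries stood apart below the rest, and the gap between olfactory bulb and cerebellum was small beside that from cortex.

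The test was limma, run across all 21718 genes on log2(level/(1 - level)), where the remainder 1 - level also includes the modification that the assay does not read, and changes are given on that scale with their standard errors. Against cortex, olfactory bulb was higher by 0.60 ± 0.11 for Neurod6 (limma adjusted p = 0.000123), 0.60 ± 0.12 for Fezf2 (0.000143), 0.51 ± 0.11 for Cux2 (0.000766) and 0.63 ± 0.11 for Emx1 (4.52e-05). Cerebellum was higher than cortex by 0.67 ± 0.11 for Neurod6 (limma adjusted p = 1.91e-06), 0.69 ± 0.12 for Fezf2 (1.61e-06), 0.44 ± 0.11 for Cux2 (0.000776) and 0.58 ± 0.11 for Emx1 (1.71e-05). Between cerebellum and olfactory bulb the changes of these 4 genes were 0.07, 0.09, -0.07 and -0.05, and none passed (limma adjusted p = 0.674 to 0.81).

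Tbr1 was highest in cerebellum, Bcl11b was lowest in olfactory bulb, and Neurod2 and Cux1 differed least. Tbr1, a T-box factor of deep-layer neurons, was at 0.507, 0.523 and 0.512 in cortex, 0.601 and 0.525 in olfactory bulb and 0.615 and 0.651 in cerebellum. The 3 tissues did not overlap, but the olfactory bulb libraries were far apart. Cerebellum was higher than cortex by 0.71 ± 0.12 (limma adjusted p = 1.37e-06) and higher than olfactory bulb by 0.42 ± 0.13 (0.0115), while olfactory bulb against cortex, 0.29 ± 0.12, missed the threshold (0.062). Olfactory bulb against cortex passed without olfactory bulb replicate 2 (0.51, 0.0234), whereas cerebellum against olfactory bulb did not pass without that library (0.20, 0.495) or without cerebellum replicate 2 (0.31, 0.194).

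Bcl11b, a zinc-finger factor, was at 0.565, 0.590 and 0.547 in cortex, 0.538 and 0.509 in olfactory bulb and 0.681 and 0.667 in cerebellum, so every olfactory bulb library was below every cortex library and cerebellum was above both. Cerebellum was higher than olfactory bulb by 0.91 ± 0.13 (limma adjusted p = 3.39e-08) and higher than cortex by 0.66 ± 0.11 (2.68e-06). The lower level of olfactory bulb against cortex, -0.25 ± 0.11, missed the threshold (limma adjusted p = 0.0831). It passed without cortex replicate 3 (-0.31, 0.0249), with either replicate block (-0.31, 0.0322, and -0.26, 0.0364) and when the 2 bins were weighted by their overlap with the gene (-0.51, 0.000862).

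Neurod2, another bHLH factor of excitatory neurons, had the lowest level of the 8 genes, at 0.335, 0.386 and 0.322 in cortex, 0.412 and 0.387 in olfactory bulb and 0.368 and 0.354 in cerebellum. Only 0.755% of genes had a lower mean in cortex. Olfactory bulb was higher than cortex by 0.32 ± 0.12 (limma adjusted p = 0.0347), a call that was lost without cortex replicate 1 (adjusted p = 0.121), cortex replicate 3 (0.0914), olfactory bulb replicate 1 (0.339) or olfactory bulb replicate 2 (0.0818). It was also lost with all bins kept (0.0586), with the replicate block by label numbers (0.24, 0.108) and with centred libraries (0.11, 0.465). Cerebellum overlapped cortex (0.09 ± 0.12, limma adjusted p = 0.537). Cux1, the homeodomain paralogue of Cux2, was at 0.627, 0.596 and 0.601 in cortex, 0.593 and 0.586 in olfactory bulb and 0.603 and 0.585 in cerebellum. None of its 3 comparisons passed (limma adjusted p = 0.436 to 0.893), and its mean levels, 0.608 ± 0.0165 (SD, n = 3), 0.589 ± 0.00513 (SD, n = 2) and 0.594 ± 0.0128 (SD, n = 2), were within 0.0185 of each other.

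Counted over the list, 5 of 8 genes were higher and 0 lower in olfactory bulb than in cortex, where 26.4% of all genes were called higher and 0.866% lower. In cerebellum 6 of 8 were higher and 0 lower than in cortex, against 55.1% and 4.26% of all genes, so the members' count there stands against a high background. Between cerebellum and olfactory bulb 2 of 8 were higher and 0 lower, against 18.0% and 7.69%. The median change of the 8 genes was 0.42, 0.62 and 0.05 in the 3 comparisons, beside 0.20, 0.29 and 0.08 over all genes. Because whole libraries shifted, each library was also centred on its own median over genes. Then 4 members were higher and 2 lower in olfactory bulb than in cortex (3.56% and 4.73% of all genes), 5 higher and 2 lower in cerebellum than in cortex (15.3% and 26.5%), and 1 higher and 2 lower in cerebellum than in olfactory bulb (13.7% and 21.9%). On the centred scale Neurod6, Fezf2 and Emx1 kept their calls against cortex in both tissues, Bcl11b became a lower call in olfactory bulb than in cortex (-0.46, limma adjusted p = 0.00349), Cux1 was lower than cortex in olfactory bulb (-0.32, 0.0343) and in cerebellum (-0.42, 0.00223), Neurod2 was lower in cerebellum (-0.26), and Cux2 kept its call in olfactory bulb only (cerebellum 0.10, 0.253). Centring also removed the call of Tbr1 in cerebellum against olfactory bulb (0.29, limma adjusted p = 0.127), while Neurod2 (-0.37, 0.0129) and Cux2 (-0.20, 0.0498) became lower there.

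The 100 kb profiles show where within each region the tissues part. In the plot of bins across each gene, Tbr1, Bcl11b, Fezf2 and Cux2 had a gene bin as the lowest of the window in cortex. Tbr1 and Cux2 did so in all 3 tissues, and Fezf2 did so in cortex and cerebellum. The Fezf2 bin was at 0.478 in cortex, while its 10 flanking bins ran from 0.551 to 0.694. In the Neurod2 window a bin 422.5 kb to the right was lower than the gene bin in cortex (0.324) and olfactory bulb (0.339), and the gene bin was the lowest in cerebellum.

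**Figure D2:**
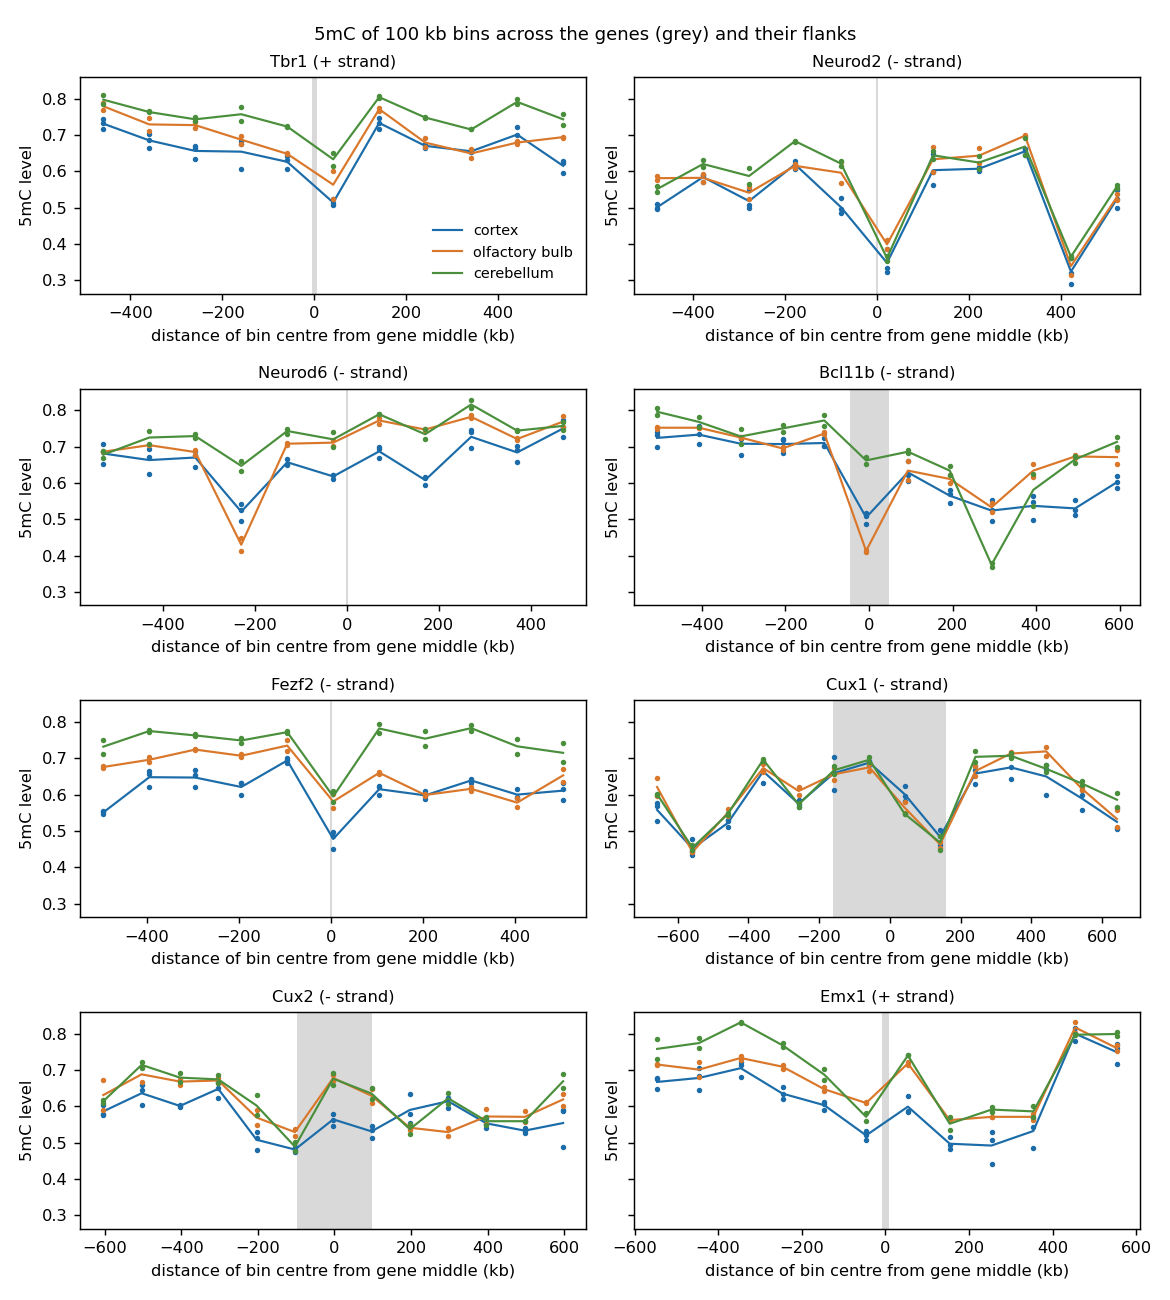
Mean 5mC level (vertical axis, fraction of 1; lines) and each library (points) of the 100 kb bins across the 8 genes and 500 kb on either side, against the distance of the bin centre from the middle of the gene in kb; grey marks the gene. The Bcl11b gene bin drops to 0.413 in olfactory bulb and stays at 0.662 in cerebellum, and a bin 293 kb to its right drops to 0.375 in cerebellum alone.

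Bcl11b was split between its 2 bins. The bin at chromosome 12, 107900001 to 108000000, of which the gene fills 89.6%, had a mean of 0.505 in cortex, 0.413 in the olfactory bulb and 0.662 in cerebellum. In the limma fit over 25664 bins cerebellum exceeded olfactory bulb there by 1.48 (adjusted p = 2.92e-26). Olfactory bulb differed from cortex by -0.54 (limma adjusted p = 0.000102). That fit took almost all of its variance from the whole set of bins (prior degrees of freedom 905, residual 4). Its p-values thus reflect the spread over all bins more than that among the libraries of 1 bin. The fit over genes was pooled less strongly (prior 66.4, residual 4). The next bin, 108000001 to 108100000, holds the start of the gene, which fills 3.6% of it, and differed less, at 0.629, 0.634 and 0.686. Farther to the right, at 108200001 to 108300000, the order turned over, with 0.524 in cortex, 0.533 in the olfactory bulb and 0.375 in cerebellum (cerebellum against cortex -0.88, limma adjusted p = 3.00e-12). Within 1 Mb, then, the gene body was low in olfactory bulb and a bin centred 293 kb from the middle of the gene was low in cerebellum. The 2 bins of 1 Mb that hold Bcl11b overlap 14 other protein-coding genes. Whether that bin bears on Bcl11b was not tested.

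Cux2 and Cux1, on the same chromosome, behaved differently along their lengths. The bin wholly inside Cux2 (121900001 to 122000000) was at 0.564 in cortex, 0.678 in the olfactory bulb and 0.676 in cerebellum, with changes from cortex of 0.71 (limma adjusted p = 1.71e-07) and 0.69 (2.92e-08). The bin at its 3′ end (121800001 to 121900000) was at 0.481, 0.529 and 0.489, and cerebellum did not differ detectably from cortex there (0.05, limma adjusted p = 0.714). Across Cux1 the bin of the start was the lowest of the 4 in all 3 tissues. The cortex means were 0.659 in the bin of the 3′ end, then 0.688, 0.601 and, in the bin of the start, 0.484. Of the 4 Cux1 bins only 136400001 to 136500000 passed, lower in cerebellum (0.547) than in cortex (0.601; -0.32, limma adjusted p = 0.00954). The left flank of Neurod6 held a bin with the Bcl11b order, 55400001 to 55500000, at 0.521 in cortex, 0.430 in the olfactory bulb and 0.647 in cerebellum (cerebellum against olfactory bulb 1.28, limma adjusted p = 4.49e-20).

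Over the 15 gene bins 9 were higher and 1 lower in olfactory bulb than in cortex, against 37.6% and 2.18% of all bins. The counts were 9 higher and 1 lower for cerebellum against cortex (71.9% and 4.44%) and 3 higher and 0 lower for cerebellum against olfactory bulb (35.3% and 7.69%). In the 80 flanking bins 33 were higher and 3 lower in olfactory bulb than in cortex, 59 higher and 2 lower in cerebellum than in cortex, and 29 higher and 3 lower in cerebellum than in olfactory bulb. From cortex to olfactory bulb flank bins changed by -0.53 to 0.93 around Neurod6 and -0.14 to 0.76 around Fezf2 (gene bins 0.60 each). Around Cux2 they changed by -0.50 to 0.42 (gene bins 0.28 to 0.71) and around Emx1 by 0.08 to 0.48 (0.52 to 0.76). From cortex to cerebellum they reached 0.83, 1.17, 0.70 and 1.03 around these genes in turn. The gene bins reached 0.67, 0.69, 0.69 and 0.93. The Tbr1 bin, whose olfactory bulb value missed the threshold among genes, passed narrowly among bins (limma adjusted p = 0.0418) with the same levels.

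To set the gene against its surroundings, the mean 5mC of the bins within 500 kb on either side was subtracted in each library. Of the 8 genes 5 were below their flanks in all 7 libraries, as were 40.7% of all genes. Neurod2 was the farthest below, from -0.235 to -0.172 over the 7 libraries, followed by Tbr1 (-0.172 to -0.102) and Fezf2 (-0.164 to -0.0682). Cux1 lay nearest to its flanks, from -0.0326 to 0.0377. The median of the 8 genes stood at -0.0715 in cortex, -0.0541 in the bulb and -0.0408 in cerebellum, beside -0.0149, -0.0121 and -0.0116 over all genes.

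Relative to their flanks, Neurod6, Fezf2, Cux2 and Emx1 were higher in olfactory bulb than in cortex, and Bcl11b was lower. Bcl11b minus its flanks was -0.0746, -0.0597 and -0.0666 in cortex, -0.147 and -0.163 in olfactory bulb and -0.00701 and -0.000931 in cerebellum, without overlap between tissues. Olfactory bulb differed from cortex by -0.0877 ± 0.0103 (limma adjusted p = 0.00269), and cerebellum was higher than cortex by 0.063 ± 0.0103 (0.00311) and higher than olfactory bulb by 0.1507 ± 0.0113 (5.54e-05), and no omission of 1 library removed any of these calls. Emx1 minus its flanks was -0.0851, -0.0861 and -0.0569 in cortex, -0.0160 and -0.0142 in olfactory bulb and -0.0625 and -0.0549 in cerebellum. In Emx1 the olfactory bulb libraries were thus closest to the flank level and those of cortex and cerebellum overlapped.

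The differences of olfactory bulb from cortex were 0.0566 ± 0.0131 for Neurod6 (limma adjusted p = 0.038), 0.0615 ± 0.0128 for Fezf2 (0.0246), 0.0629 ± 0.0116 for Cux2 (0.0159) and 0.0609 ± 0.0116 for Emx1 (0.0181). They rest on few libraries. Neurod6 did not pass without cortex replicate 1 or 2 or any 1 of the other 4 libraries (adjusted p = 0.0508 to 0.184), Fezf2 not without cortex replicate 1 or any 1 of those 4 (0.0511 to 0.156), Emx1 not without cortex replicate 1 or either olfactory bulb library (0.0595 to 0.095), and Cux2 not without olfactory bulb replicate 2 (0.103). The flank mattered too: with flanks of 200 kb Emx1 fell to 0.0381 (adjusted p = 0.105) and Neurod6 to 0.0464 (0.108), and with flank bins wholly inside 500 kb Neurod6 was at 0.0508 (0.0601). Relative to the flanks, cerebellum was lower than olfactory bulb for Fezf2, with a difference of -0.0771 ± 0.0141 (limma adjusted p = 0.00534), a call kept in every omission. It was lower for Neurod2 (-0.0548 ± 0.0135, limma adjusted p = 0.0194) and for Emx1 (-0.0435 ± 0.0127, 0.0388), and both were lost without any 1 olfactory bulb or cerebellum library, Emx1 also without cortex replicate 1 (adjusted p = 0.0549 to 0.187) and with flanks of 200 kb (-0.0353, 0.0877). The Fezf2 flanks themselves averaged 0.623 in cortex, 0.664 in the olfactory bulb and 0.756 in cerebellum.

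**Figure D3:**
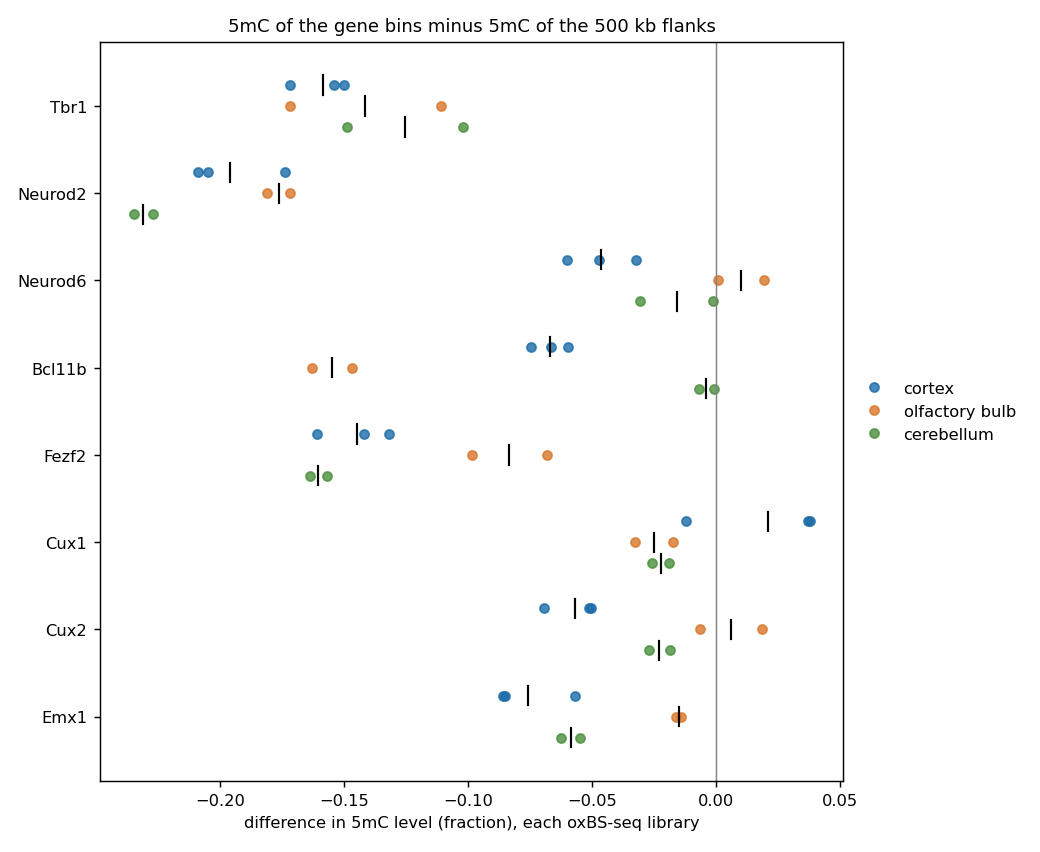
5mC of the gene bins minus the mean of the bins within 500 kb on either side, in each oxBS-seq library (points; horizontal axis, difference of fractions), with tissue means as black ticks and 0 as a grey line. Bcl11b lies at -0.163 and -0.147 in olfactory bulb and next to 0 in cerebellum, and Neurod2 stays below -0.17 in every library.

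In counts, 4 of 8 genes were higher and 1 lower than cortex in olfactory bulb relative to their flanks, where 3.3% and 2.59% of 21645 genes were called. For cerebellum against cortex the counts were 1 and 0 (11.7% and 11.3%), and for cerebellum against olfactory bulb 1 and 3 (9.97% and 10.9%). The median differences of the 8 genes were 0.0381, 0.0240 and -0.0274 as fractions, beside 0.0017, 0.0003 and -0.0018 over all genes. In olfactory bulb against cortex 5 of 8 genes were thus called where few genes were in the genome. However, 4 of these 5 calls were lost without 1 library as described. The list was chosen with earlier results of these data known, so the contrast with all genes is a description only.

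5hmC was read at a coarser scale, in bins of 1 Mb of which Cux1 fills 31.9% and the other genes between 0.344% and 14.4%, so the values describe the neighbourhoods of the genes. The 10 bins mostly lay above the median bin in 5hmC, some of them only just. In cortex Neurod2 was at percentile 44.0, Tbr1 at 53.7 and Emx1 at 54.9, while the Cux2 bins were at 90.4 and 85.9. In cortex their median was 0.188 against 0.175 over all bins, with 9 of 10 above that median. In olfactory bulb it was 0.173 against 0.152 (7 of 10 above), and in cerebellum 0.128 against 0.0931 (8 of 10 above). The Fezf2 bin had the highest cortex level, at 0.219, 0.231 and 0.206, a mean that 95.0% of bins did not reach.

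All 10 neighbourhoods were lower in cerebellum than in cortex, by amounts that differed among the genes. The Tbr1 bin was at 0.179, 0.187 and 0.167 in cortex, 0.146, 0.152 and 0.146 in olfactory bulb and 0.0840, 0.0852 and 0.0875 in cerebellum, 3 groups without overlap. The left Bcl11b bin (107000001 to 108000000), of which the gene fills 8.96%, was at 0.178, 0.186 and 0.171 in cortex, 0.185, 0.195 and 0.193 in olfactory bulb and 0.0837, 0.0859 and 0.0902 in cerebellum. There the olfactory bulb libraries overlapped those of cortex and were higher in the mean (0.191 ± 0.00554 against 0.178 ± 0.00744, SD, n = 3 each). The left Cux2 bin (121000001 to 122000000) was at 0.210, 0.219 and 0.203 in cortex, 0.178, 0.182 and 0.171 in olfactory bulb and 0.167, 0.165 and 0.176 in cerebellum, where the last 2 tissues overlapped.

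**Figure D4:**
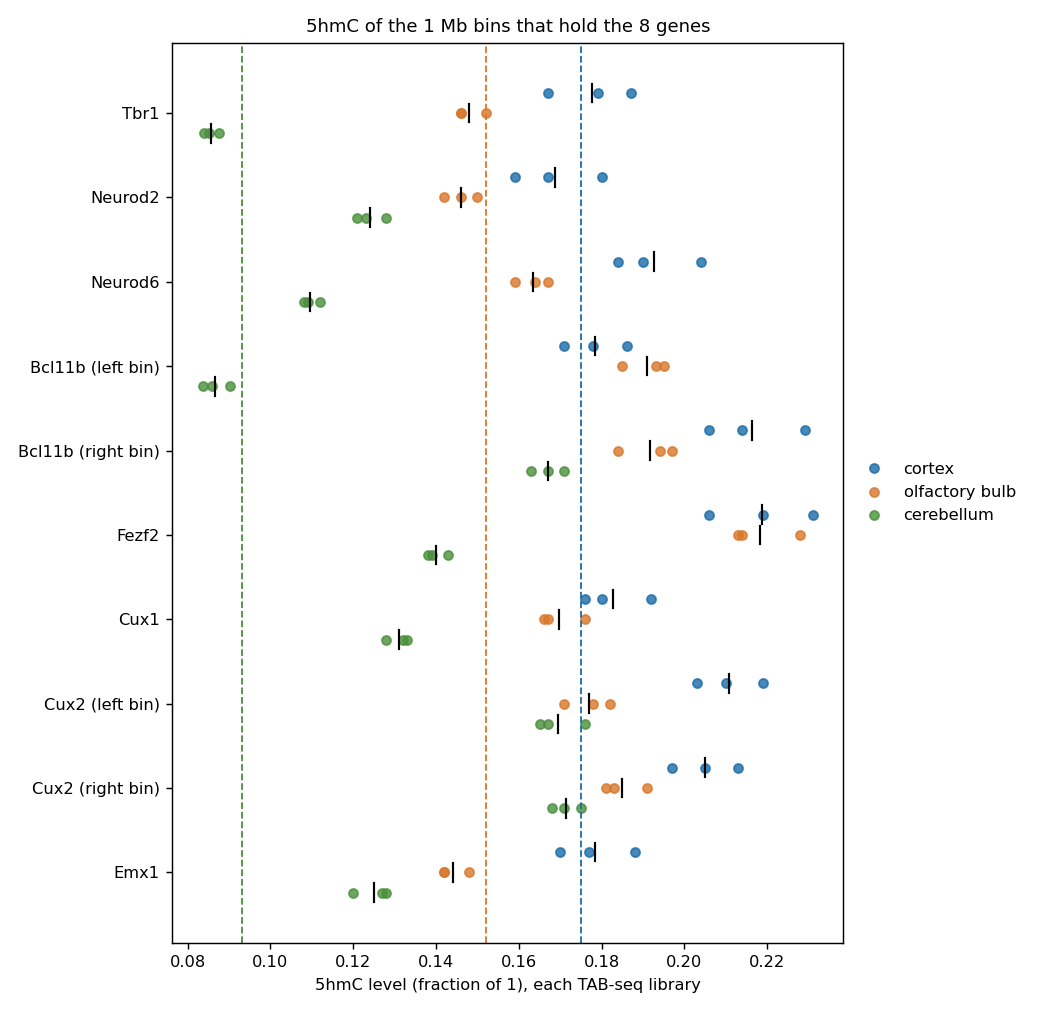
5hmC level (horizontal axis, fraction of 1) of the 10 bins of 1 Mb that hold the genes, in each TAB-seq library (points), with tissue means as black ticks and the median of all bins of each tissue as a dashed line. The cerebellum mean (green) is lowest in every bin, close to the genome median for Tbr1 and the left Bcl11b bin and well above it for both Cux2 bins, and the olfactory bulb mean (orange) is above that of cortex only in the left Bcl11b bin.

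On the log2 ratio scale, the changes from cortex to cerebellum ranged from -1.21 ± 0.07 for Tbr1 (limma adjusted p = 6.39e-60) to -0.32 ± 0.07 for the right Cux2 bin (1.51e-05). The left Bcl11b bin changed by -1.19 (limma adjusted p = 1.13e-58), Neurod6 by -0.96, Fezf2 by -0.78, Emx1 by -0.61, Cux1 by -0.57, Neurod2 by -0.52, the right Bcl11b bin by -0.46 and the left Cux2 bin by -0.39. The whole genome shifted in the same way, with a median of -0.97 over 2581 bins, so 8 of the 10 neighbourhoods lost less than the typical bin. Of these Neurod6 (-0.96 ± 0.07, percentile 50.9 of all changes) was hardly apart from the median. The limma prior pooled the variance fully here, and every bin carries the same standard error.

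From cortex to olfactory bulb 7 of 10 bins were lower and 0 higher, against 67.7% and 3.25% of all bins. The 3 that did not pass were the left Bcl11b bin (0.12 ± 0.07, limma adjusted p = 0.119, or 0.0848 with the replicate block and 0.0313 on the fraction scale), Cux1 (-0.13, 0.113) and Fezf2, whose means were 0.219 in cortex and 0.218 in olfactory bulb (0.975). Without cortex replicate 2 the left Bcl11b bin was higher in olfactory bulb (0.16, 0.0144), without cortex replicate 3 Cux1 was lower (-0.16, 0.0474), without olfactory bulb replicate 3 the right Bcl11b bin no longer passed (0.0623), and without cortex replicate 1, olfactory bulb replicate 1 or olfactory bulb replicate 3 the right Cux2 bin no longer passed (0.0503 to 0.0665). Cerebellum was lower than cortex in 10 of 10 and higher in 0 (97.6% and 0.426% of all bins), and lower than olfactory bulb in 8 of 10 and higher in 0 (91.8% and 1.2%). The 2 exceptions in the last comparison were the Cux2 bins (-0.08, limma adjusted p = 0.312, and -0.13, 0.0783), and the right one passed without cortex replicate 2 (0.0135).

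The direction depends on the reference. With each library centred on its own median over bins, 4 of the 10 bins were higher and 3 lower in olfactory bulb than in cortex (36.2% and 33.0% of all bins). In cerebellum 8 were then higher and 2 lower than in cortex (50.3% and 40.1%), and 7 higher and 2 lower than in olfactory bulb (50.9% and 39.1%). The median change of the 10 bins, uncentred, was -0.23, -0.59 and -0.36 in the 3 comparisons, beside -0.24, -0.97 and -0.72 over all bins. Tbr1 and the left Bcl11b bin are those that stayed lower in cerebellum than in cortex after centring.

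The 5hmC level was also set against the sum of the 5mC and 5hmC levels, which came from separate libraries. How sites were combined within a bin is not given for either assay, and no correction for incomplete conversion was added here. The percentages are thus ratios of the listed levels, and whether they equal the oxidised share of modified cytosine was not tested. With 5mC averaged over the 100 kb bins of each 1 Mb bin, 5hmC made up between 20.4% (left Bcl11b bin) and 27.1% of the sum in cortex, with a median over the 10 bins of 23.8% beside 20.5% over all bins. The median was 21.2% beside 17.7% in olfactory bulb and 16.5% beside 11.1% in cerebellum. The right Cux2 bin kept 22.1% in cerebellum, the highest of the 10, and Tbr1 had 10.1%, the lowest. The sum itself was 0.856 ± 0.0140, 0.869 ± 0.0159 and 0.845 ± 0.00510 for Tbr1 in cortex, olfactory bulb and cerebellum (error combined from the SDs of both assays). In that neighbourhood the sum thus differed by far less than 5hmC did. Neurod6 was similar between cortex and cerebellum (sums 0.841 and 0.838), but not every bin was. For Cux1 the sum was 0.807 ± 0.0199 in cortex and 0.767 ± 0.0112 in cerebellum, with 5hmC at 0.182 and 0.131. For Fezf2 it was 0.841 ± 0.0181 in cortex and 0.880 ± 0.0115 in olfactory bulb, with 5hmC at 0.219 and 0.218.

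The other genes of the cortical excitatory lineage, 22 in all, had median changes above 0 in each comparison. Of them 9 were higher and 2 lower in 5mC in olfactory bulb than in cortex, 15 higher and 2 lower in cerebellum than in cortex, and 10 higher and 3 lower in cerebellum than in olfactory bulb. The shares over all genes were 26.4% and 0.866%, 55.1% and 4.26%, and 18.0% and 7.69%. Their median changes were 0.27, 0.59 and 0.29, beside 0.20, 0.29 and 0.08 over all genes. With libraries centred the counts were 4 and 2, 11 and 5, and 8 and 6, against 3.56% and 4.73%, 15.3% and 26.5%, and 13.7% and 21.9% of all genes. Pou3f3 and Pou3f2, POU-domain factors of upper-layer neurons, were higher in olfactory bulb than in cortex by 0.66 ± 0.11 and 0.61 ± 0.12 (limma adjusted p = 2.03e-05 and 0.000259).

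The widest differences between cerebellum and the other 2 tissues in that list were those of Mef2c, Bcl11a and Camk2a. Mef2c, a MADS-box factor, was at 0.730 ± 0.000374 in cerebellum (SD, n = 2), 0.464 ± 0.00973 in cortex (n = 3) and 0.499 ± 0.0122 in olfactory bulb (n = 2; cerebellum against cortex 1.64 ± 0.11, limma adjusted p = 7e-19). Bcl11a, the paralogue of Bcl11b, had the same order as Bcl11b, with 0.494 in cortex, 0.424 in the olfactory bulb and 0.676 in cerebellum (cerebellum against olfactory bulb 1.51 ± 0.13, limma adjusted p = 9.17e-15). Camk2a, a kinase subunit of excitatory synapses, was at 0.490, 0.473 and 0.659. Neurod1, which is also a factor of cerebellar granule cells, was lower in cerebellum (0.430) than in cortex (0.558, change -0.74, limma adjusted p = 4.08e-07). Etv1 was the other gene of that list called lower in cerebellum (0.568) than in cortex (0.662, change -0.57, limma adjusted p = 3.42e-05). It was also lower in olfactory bulb (0.599, change from cortex -0.39, limma adjusted p = 0.0113). Both genes were singled out after their values were seen.

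Marker genes of other cells were used to check the tissues, since only DNA was read here. Of 12 genes of olfactory bulb neurons, mostly interneuron genes with Eomes and Tbx21 of the mitral and tufted projection neurons, 6 were lower and 0 higher in olfactory bulb than in cortex, where 0.866% of all genes were lower and 26.4% higher. Against olfactory bulb, cerebellum had 7 of them higher and 0 lower (18.0% and 7.69% of all genes), and against cortex 9 higher and 1 lower (55.1% and 4.26%). Dlx1 and Dlx2 share their bin, as do Dlx5 and Dlx6, and Eomes stands on 2 lists. Meis2 had 0.543 in cortex, 0.296 in the bulb and 0.657 in cerebellum, while Eomes and Tbx21 were not lower in the bulb (changes of 0.18 and 0.21 from cortex, not called). With centred libraries the 3 counts were 8 lower and 0 higher in the bulb than in cortex, 7 higher and 1 lower in cerebellum than in the bulb, and 1 higher and 2 lower in cerebellum than in cortex.

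Of 11 genes of cerebellar granule and Purkinje neurons, 6 were lower and 1 higher in cerebellum than in olfactory bulb (7.69% and 18.0% of all genes), and 8 were higher and 0 lower in olfactory bulb than in cortex (26.4% and 0.866%). Against cortex cerebellum was split, with 3 lower and 4 higher, where 4.26% of all genes were lower and 55.1% higher. The lower genes there were Fat2 (change -1.35), Cbln1 (-0.54) and Zic2 (-0.53), known from granule neurons. The higher genes were Itpr1 (0.85), Calb1 (0.52), Car8 (0.50) and Pcp2 (0.27), known from Purkinje neurons. The rest of the list, also granule neuron genes, was not called (limma adjusted p = 0.102 to 0.661). These were Cbln3 (-0.22), Zic1 (-0.14), Gabra6 (0.06) and Barhl1 (0.14). The list was not divided by cell type in advance. With centred libraries 7 were lower and 1 higher in cerebellum than in cortex, 7 and 1 than in olfactory bulb, and in olfactory bulb 1 was higher and 0 lower than in cortex. Of 10 glial genes 4, 9 and 2 were higher and 0 lower in olfactory bulb against cortex, cerebellum against cortex and cerebellum against olfactory bulb, where 26.4%, 55.1% and 18.0% of all genes were higher. Their median changes were 0.26, 0.37 and 0.03, beside 0.20, 0.29 and 0.08 over all genes. Among them Olig1 and Olig2 share their bin and so have the same values. With centred libraries 0, 2 and 2 glial genes were higher and 1, 0 and 0 lower. The part of neuron and glia proportions in the differences over the 8 genes was not tested.

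Genes elsewhere in the genome with the most similar 5mC over the 7 libraries were listed for the 3 genes that fill most of a bin, by Euclidean distance between levels. For Bcl11b these were Map2 (distance 0.0402; 0.563, 0.506 and 0.653 in cortex, olfactory bulb and cerebellum) and Btbd1 (0.0451; 0.563, 0.533 and 0.696). For Cux1 they were Trmt9b (0.0335) and Rpl38 (0.0354), both nearly level across the tissues. For Cux2 they were Tdg and 1190007I07Rik, which share their bins and so have 1 distance, 0.0190, with 0.522 in cortex, 0.616 in the olfactory bulb and 0.602 in cerebellum.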

How the data were processed

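Paired reads were aligned by the authors to mm10 with Bismark, keeping unique hits, and modified cytosines were called against a binomial background. The deposited unit is a fraction between 0 and 1 per bin and library, without read counts. How sites were combined within a bin is not given in the sources used here. The 5mC fractions came in 26327 bins of 100 kb and the 5hmC fractions in 2641 bins of 1 Mb. Bins listed at 0 or 1 in any library were left out, which kept 25664 and 2581. Tissue and replicate came from the sample labels. The RNA-seq libraries were not used here.

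For each protein-coding gene of GENCODE M21 the bins it overlaps were averaged without weights, so genes that share bins share values. Flanks were the bins overlapping 500 kb on either side, and genes with fewer than 2 flank bins on a side were left out of that comparison. Levels were put on the scale log2(level/(1 - level)) and fitted with limma 3.58.1 (R 4.3.3) with all 3 tissues in 1 fit, over all genes or bins. Differences from the flanks were fitted as fractions. Levels were limited to 0.001 to 0.999 only in the alternative that kept all bins. Adjusted p-values are Benjamini-Hochberg, called under 0.05. The fits were also run on simulated levels with independent noise of 1 size for all features. These held no shift of whole libraries and no error shared between neighbouring bins, so that run does not test for either. CpG sites were counted in GRCm38 and promoters are from RefSeq.

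The members and the gene lists were chosen with earlier results of these data known. The genes named are all 8 members, up to 3 other cortical genes per comparison with the largest change among those called and separated in every library, and the 2 nearest genes of each member that fills most of a bin; others named are said to be chosen later or are markers of the tissues. A gene that this rule names is not reported here. The paper reports an average genomic coverage per tissue, but the fractions came without read counts. Precision was therefore judged only from the spread between libraries. Alternatives changed the scale, the centring, the bin filter, the bin weights, the flank, the background genes, the variance model, the replicate block and the libraries. The labels do not say whether same-numbered TAB-seq libraries share an animal. Deviations of same-numbered libraries from their tissue means correlated at 0.126, 0.344 and 0.25 for cortex with olfactory bulb. They correlated at -0.071, -0.229 and -0.181 for cortex with cerebellum, and at 0.074, -0.13 and -0.168 for olfactory bulb with cerebellum. Libraries of unlike number were not compared, so these values do not show a pairing.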

Additional observations from a re-analysis of the deposited data

Results flagged for a closer look

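The difference between a gene and its flanks in 5mC differed between tissues in 10 comparisons over 6 of the 8 genes, by the limma test of that difference across 21645 genes, of which 31.9% were called in at least 1 comparison. Of the 10 calls 6 were lost on leaving out 1 library.

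In olfactory bulb against cortex the differences were 0.0566 for Neurod6, -0.0877 for Bcl11b, 0.0615 for Fezf2, 0.0629 for Cux2 and 0.0609 for Emx1. In cerebellum against cortex the one difference was 0.063 for Bcl11b. In cerebellum against olfactory bulb the differences were -0.0548 for Neurod2, 0.1507 for Bcl11b, -0.0771 for Fezf2 and -0.0435 for Emx1. Bcl11b alone passed in all 3 comparisons, and its sign was opposite to that of the other called genes in each comparison that called others. The calls that stayed whichever 1 library was left out were the 3 of Bcl11b and that of Fezf2 in cerebellum against olfactory bulb.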

How the results depend on the processing

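Counts of called genes in 5mC stayed within 1.5 times of the reported value under all alternatives, except for cerebellum against olfactory bulb, where leaving out 1 library gave 1 to 2 genes in place of 2. Relative to the flanks, the 5 calls of olfactory bulb against cortex became 3 with flanks of 200 kb, 3 with either replicate block (numbers of the labels or of the library names) and 1 to 5 without 1 library. The 1 call of cerebellum against cortex became 3 with flanks of 200 kb, 2 with flank bins wholly inside 500 kb, 2 with the block of library-name numbers and 1 to 2 without 1 library. The 4 calls of cerebellum against olfactory bulb became 2 with that block and 2 to 4 without 1 library. Counts for 5hmC stayed within 1.5 times throughout. For 5hmC the replicate block gave 7, 10 and 8 called bins, as without it.

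Centring each library on its median turned the sign of several values. In 5mC it gave -0.26 for Neurod2 (cerebellum against cortex) and, for cerebellum against olfactory bulb, -0.06 for Neurod6, -0.05 for Fezf2 and -0.10 for Cux1. In 5hmC, olfactory bulb against cortex became 0.03 for the right Bcl11b bin, 0.24 for Fezf2, 0.12 for Cux1 and 0.05 for the right Cux2 bin. Cerebellum against cortex became 0.52 for Neurod2, 0.09 for Neurod6, 0.59 for the right Bcl11b bin, 0.26 for Fezf2, 0.48 for Cux1, 0.66 and 0.72 for the Cux2 bins and 0.44 for Emx1. Cerebellum against olfactory bulb became 0.53, 0.14, 0.56, 0.02, 0.36, 0.73, 0.67 and 0.56 for the same bins. These follow from removing the shift of whole libraries. Leaving out 1 library at a time moved uncalled values across 0. In 5mC of cerebellum against olfactory bulb the ranges were -0.03 to 0.20 for Fezf2, -0.08 to 0.22 for Neurod6 and -0.02 to 0.08 for Cux1. Relative to the flanks they were -0.0136 to 0.0476 for Tbr1 (olfactory bulb against cortex) and, for cerebellum against olfactory bulb, -0.0145 to 0.0467 for Tbr1 and -0.0052 to 0.0102 for Cux1. For 5hmC of Fezf2 in olfactory bulb against cortex the range was -0.06 to 0.05. The block of library-name numbers gave -0.04 for Cux1 in 5mC and -0.0175 relative to its flanks (cerebellum against olfactory bulb), and flanks of 200 kb gave -0.0078 for Neurod6 (cerebellum against cortex). For these the cause was not tested.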
